A study of Mus musculus with 12 samples.

Results

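The aminoacyl-tRNA synthetases and the genes of the amino acid stress response were examined in mouse embryonic fibroblasts that had or lacked the long noncoding RNA lincRNA-p21, with and without the DNA-damaging drug doxorubicin. The members were taken by name from the gene lists of the 2 deposited expression tables. They were every synthetase symbol (an amino acid letter followed by ARS, with or without the suffix 2, A, B or L2), Eprs, and 14 named stress and amino acid synthesis genes. This gave 52 of the 11481 genes listed in either table, all 52 of which were in both tables. They comprised 21 cytosolic synthetases, 17 mitochondrial synthetases, 3 stress transcription factors (Atf4, Atf5 and Ddit3), 3 effector or feedback genes (Trib3, Chac1 and Ppp1r15a), 5 genes of serine and mitochondrial one-carbon metabolism (Phgdh, Psat1, Psph, Shmt2 and Mthfd2), and 3 genes of asparagine and proline synthesis (Asns, Aldh18a1 and Pycr1). Gars and Kars each encode both a cytosolic and a mitochondrial enzyme and were counted as cytosolic. The tables write gene symbols in capitals, and mouse capitalisation is used here.

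The cells were primary cultures from a hybrid 129/B6 background, and there were 4 groups of 3 libraries. These were lincRNA-p21 knockout (KO) cells given doxorubicin, wild-type (WT) cells given doxorubicin, mock-treated KO cells and mock-treated WT cells. All were grown in medium that was supplemented with L-glutamine and non-essential amino acids. The labels give the dose as 0.5 mM for 24 hours. Whether that unit is right was not checked here, and doses used on cultured cells are commonly in the micromolar range. What the mock treatment contained is not given in the sources used here. The series names its replicates biological, but the labels do not say whether they came from separate embryos, so the p-values measure the spread between these samples. LincRNA-p21 itself was not analysed here.

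Aminoacyl-tRNA synthetases join each amino acid to its tRNA, and most exist as separate cytosolic and mitochondrial enzymes encoded by different nuclear genes. When uncharged tRNA or another stress leads to phosphorylation of the translation factor eIF2, general protein synthesis falls while the mRNA of the transcription factor ATF4 is translated more. ATF4 then raises the transcription of many cytosolic synthetases, amino acid transporters and enzymes that make asparagine, serine and proline. It often does so through a composite element, the C/EBP-ATF response element, which joins a C/EBP site to an ATF site.

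To show what the start regions of these genes hold, the 8-letter motif TGATGNAA, a form of the C/EBP-ATF element, was searched on both strands of RefSeq promoters (GRCm38.p6, 250 bases before to 50 after an annotated start). It was present in 9 of the 42 members that had a promoter entry (21.4%), against 207 of the 8084 genes of both tables with an entry (2.56%). The stress and amino acid members were named as genes of the ATF4 response, which often acts through this element. These shares therefore describe the list and are not a test of it. The members were matched to RefSeq by symbol (51) or synonym (1), and the submitters' assembly was a different one, NCBIM37. Each match is printed 5′ to 3′ on the strand on which it reads TGATGNAA, with the motif in capitals and up to 20 bases on each side, ending no later than 30 bases past the start.
Aars, upstream match (chr8:111033710-111033757, minus strand): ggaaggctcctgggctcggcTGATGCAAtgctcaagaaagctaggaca
Aars, downstream match (chr8:111033831-111033871, minus strand): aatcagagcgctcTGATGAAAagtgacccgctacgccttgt
Asns (chr6:7693205-7693252, minus strand): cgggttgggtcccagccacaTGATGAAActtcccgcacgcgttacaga
Chac1 (chr2:119351029-119351076, minus strand): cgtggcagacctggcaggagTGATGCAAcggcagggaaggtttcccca
Gars (chr6:55037951-55037998, minus strand): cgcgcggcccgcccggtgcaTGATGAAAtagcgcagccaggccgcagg
Iars (chr13:49682117-49682159, minus strand): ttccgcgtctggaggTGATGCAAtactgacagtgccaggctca
Pycr1 (chr11:120643824-120643871, minus strand): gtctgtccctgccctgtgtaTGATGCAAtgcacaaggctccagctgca
Tars (chr15:11399646-11399693, plus strand): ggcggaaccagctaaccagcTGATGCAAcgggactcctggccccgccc
Trib3 (chr2:152344031-152344066, plus strand): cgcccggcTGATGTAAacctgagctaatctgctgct
Yars (chr4:129189886-129189932, plus strand): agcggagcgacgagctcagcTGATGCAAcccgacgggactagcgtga

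These sequences are shown because 8 of the 9 genes that hold one were called lower after doxorubicin in both genotypes and Chac1 in KO cells, as described further on. The Asns match began 23 bases before the annotated start, the Chac1 match 193 bases before it and the Pycr1 match 103 bases before it. The Gars and Tars matches began 30 and 15 bases before it. The matches in Yars, Iars and Trib3 began 3, 7 and 14 bases after it, and Aars held a match 112 bases before and another 9 bases after. The annotated start is one of several possible ones: it was the outermost start of the gene for 26 of the 45 windows of the members. The Trib3 promoter is printed whole as far as 30 bases past the start, since Trib3 fell furthest of all members. It reads, on the gene's own minus strand, with the motif in capitals as the reverse complement TTACATCA:
Trib3 promoter (chr2:152344031-152344310, minus strand): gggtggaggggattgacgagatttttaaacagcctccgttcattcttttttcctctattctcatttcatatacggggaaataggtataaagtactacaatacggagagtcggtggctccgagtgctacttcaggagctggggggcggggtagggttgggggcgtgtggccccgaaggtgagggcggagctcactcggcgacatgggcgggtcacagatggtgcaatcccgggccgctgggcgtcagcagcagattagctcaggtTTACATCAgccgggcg

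Of the classes, 5 of the 14 cytosolic synthetases with a promoter entry held the motif, as did 2 of the 3 effector genes (Trib3 and Chac1) and 2 of the 3 asparagine and proline genes (Asns and Pycr1). It was in 0 of the 14 mitochondrial synthetases with an entry, 0 of the 5 serine and one-carbon genes and 0 of the 3 transcription factors. Another motif, the E-box CACGTG, which reads the same on both strands, was in 6 of the 42 members (14.3%) and in 1008 of the 8084 genes (12.5%). A match is a description of these letters, and no match says only that they are absent from the window.

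Every value was a whole multiple of 1 read of its library, within 0.001 of a read, and the totals found from these steps were 14327048 to 20511907 reads, of which 99.2 to 99.6% fell in genes of the tables. The values are CPM, a gene's reads scaled to the library's total, and the lowest value of any member in any library was 3.41 CPM. The fewest reads behind a member's value, in another library, were 67. Of 14 fibroblast markers, 13 were in both tables. The p53 targets Cdkn1a and Mdm2, which served as a check of the treatment, were higher after doxorubicin in KO cells by 1.78 and 1.89 on the log2 scale, and in WT cells by 1.15 and 1.79 (limma, adjusted p at most 6.93e-05). Cdkn1a started lower in KO cells, at 283 to 357 CPM in KO mock against 506 to 613 CPM in WT mock libraries. After doxorubicin its means were 1078 CPM in KO and 1260 CPM in WT cells.

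Doxorubicin against mock treatment asks how the members respond to DNA damage in each genotype. Most of the amino acid stress program was lower after doxorubicin, in KO and in WT cells alike. Trib3, Mthfd2, Asns, Aldh18a1, Atf5 and Pycr1 fell the most, with log2 differences of -3.65 to -1.79 in KO cells and of -3.78 to -1.92 in WT cells. Of the 21 cytosolic synthetases 14 fell with them, most mitochondrial synthetases did not pass the test, and Ppp1r15a and Cars2 rose in both genotypes. In KO cells 28 of the 52 members were lower and 2 higher, while 14.6% of the 10292 genes tested were lower and 19.9% higher. In WT cells 28 were likewise lower and 2 higher, while 21.4% of all genes were lower and 25.9% higher. The median log2 difference over the 52 members was -0.61 in KO cells and -0.55 in WT cells, where the medians over all genes were 0.04 and 0.01. The counts rest on limma with Benjamini-Hochberg adjusted p under 0.05 on log2(CPM + 1), a scale that understates the change of low genes.

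With the replicate number as a block, 31 members were lower in KO cells and 35 in WT cells, and the same number, 2, were higher in each. The corresponding shares of all genes with the block were 24% and 30.1% lower, and 29.6% and 33.6% higher. Among the 30 members called without the block in each genotype, 26 were lower in both genotypes and both risers were shared. Chac1 and Phgdh were called lower in KO cells and not in WT cells, and Vars2 and Iars2 were called lower in WT cells and not in KO cells. For none of these genes was the difference between genotypes in the doxorubicin response, tested as an interaction, called. The 3 doxorubicin libraries all lay below the 3 mock libraries for 32 members in KO and 29 in WT cells, where 21.5% and 25.3% of all genes did, and above them for 2 members in each, where 27.1% and 29.4% did. By the ratio of mean CPM, 18 members were at least 2-fold lower in each genotype and 16 in both.

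The libraries of the 2 treatments also differed in cell type markers. The summed level of the 13 fibroblast markers was 31870 to 40880 CPM in KO doxorubicin libraries and 35060 to 43490 CPM in WT doxorubicin libraries, against 52460 to 68630 CPM in KO mock libraries and 61690 to 73440 CPM in WT mock libraries. The ranges for doxorubicin and mock did not overlap in either genotype. Fn1, Col1a1 and Col1a2 made up most of this sum, with means of 23318.5, 16816.7 and 11120.8 CPM in WT mock libraries. Of the 13 markers, 12 had a log2 difference below 0 in KO and 11 in WT cells. By limma 5 were called lower in each genotype, and 9 in KO and 10 in WT cells with the block. Vim was not lower, with means of 4409.07 CPM in KO doxorubicin against 3898.96 CPM in KO mock libraries. Its WT means were 4151.51 and 3974.13 CPM. Of 6 blood cell markers, Cd68 was in both tables, at 45.4 to 112.5 CPM in KO and 49.2 to 126 CPM in WT doxorubicin libraries, against 2.42 to 58.3 CPM in KO and 2.84 to 29.2 CPM in WT mock libraries. Cd14 was in the doxorubicin table alone. Ptprc, Lyz2, Emr1 and Csf1r were looked for and found under these symbols in neither table, and the tables hold only genes above 2 CPM in every WT library. The 2 endothelial markers of 6 that were in both tables summed to 54.0 to 75.3 CPM in KO and 78.7 to 94.9 CPM in WT doxorubicin libraries, against 18.7 to 36.8 CPM in KO and 29.3 to 48.4 CPM in WT mock libraries. The 2 adipocyte markers of 5 that were in both tables, Cebpa and Fabp4, summed to 33.3 to 63.1 CPM in KO and 59.6 to 115.8 CPM in WT doxorubicin libraries, against 5.75 to 16.6 CPM in KO and 5.67 to 12.6 CPM in WT mock libraries. Of the other adipocyte markers, Pparg was in the mock table alone, and Adipoq and Plin1 were in neither table. The endothelial and adipocyte sums did not overlap between treatments. The part of these markers in the responses was not tested, and in bulk RNA fewer cells of a type cannot be told apart from less RNA per cell.

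**Figure D1:**
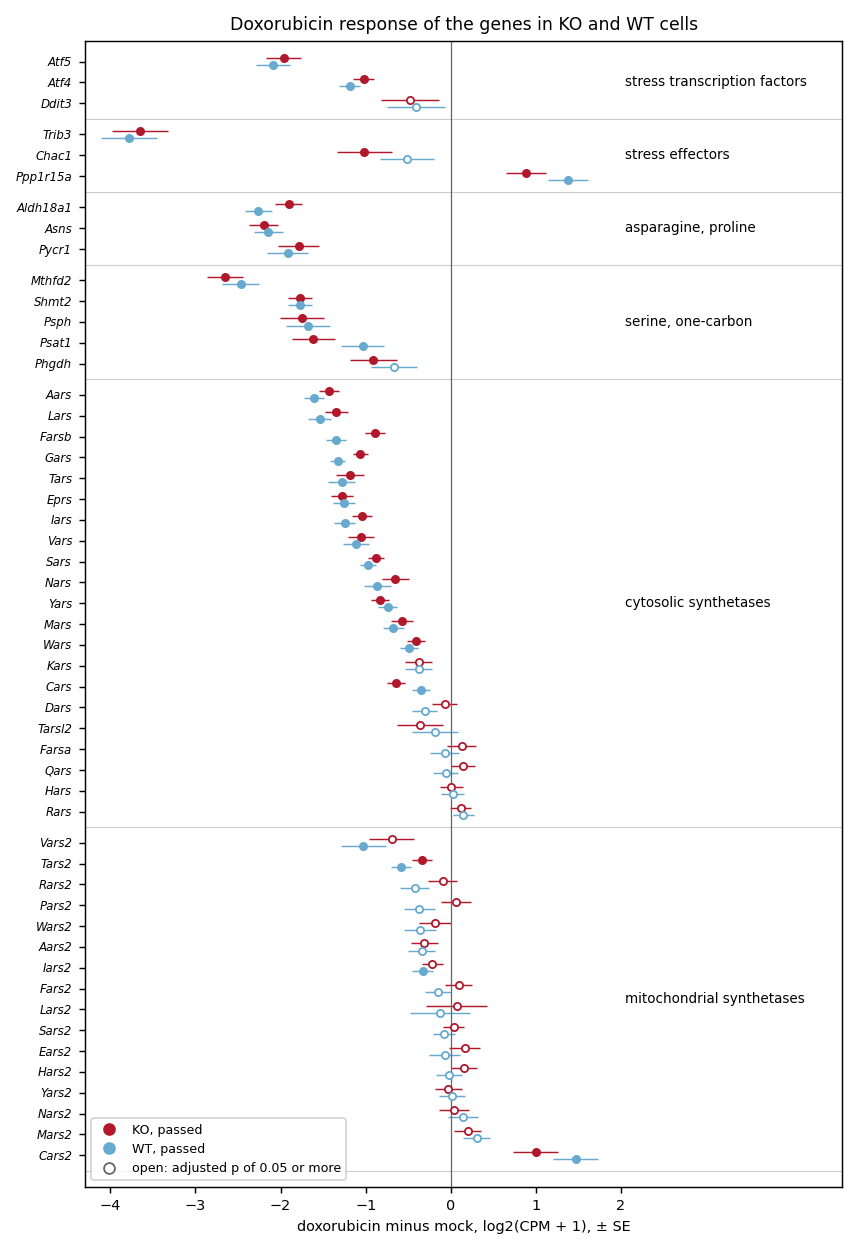
Log2(CPM + 1) difference, doxorubicin minus mock, for 51 of the 52 members in KO (red) and WT (blue) cells, grouped by class; points are limma estimates, bars are ± 1 SE, and filled points passed an adjusted p of 0.05. Asparagine, proline, serine and one-carbon genes and most cytosolic synthetases lie left of 0 in both genotypes, most mitochondrial synthetases lie near 0, and Ppp1r15a and Cars2 lie to the right.

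Of the 3 transcription factors, Atf4 and Atf5 fell in both genotypes and Ddit3 did not pass the test. Atf4, the central factor of the response, had 185, 203 and 157 CPM in the 3 KO doxorubicin libraries, against 376, 362 and 368 CPM in the KO mock libraries. It had 172, 147 and 133 CPM in WT doxorubicin libraries, against 380.3, 337 and 311 CPM in WT mock libraries. Every doxorubicin library lay below every mock library. The log2 difference was -1.03 (SE 0.12, adjusted p = 2.11e-04) in KO and -1.19 (SE 0.12, adjusted p = 4.73e-05) in WT cells by limma, a 2.03-fold and a 2.28-fold lower mean. These are RNA levels, and the ATF4 protein, which is set largely by translation, was not measured.

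Atf5, a related factor whose translation is also raised by eIF2 phosphorylation, had 86.5, 57.7 and 70.5 CPM in KO doxorubicin libraries, against 322, 215 and 313 CPM in KO mock libraries. In WT cells it had 70.5, 72.6 and 58.2 CPM after doxorubicin, against 353, 233 and 289.7 CPM in mock libraries. The groups were far apart, with replicate 2 the lowest mock library in both genotypes. The log2 differences were -1.97 (SE 0.20, adjusted p = 9.06e-05) in KO and -2.09 (SE 0.20, adjusted p = 3.25e-05) in WT cells by limma.

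Ddit3 encodes CHOP, a factor induced by prolonged stress. Its levels were 54.01, 57.4 and 64.7 CPM in KO doxorubicin libraries, against 89.1, 49.1 and 125 CPM in KO mock libraries, and 56.2, 71.03 and 79.4 CPM in WT doxorubicin libraries, against 117, 55.1 and 117 CPM in WT mock libraries. The groups overlapped, because mock replicate 2 of each genotype was about as low as the doxorubicin libraries. The log2 differences of -0.48 (adjusted p = 0.298) in KO and -0.41 (adjusted p = 0.339) in WT cells did not pass the test by limma, with or without the block.

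Trib3, a pseudokinase induced by ATF4 and CHOP that holds back the response, showed the furthest fall of any member. It had 6.91, 6.42 and 4.58 CPM in KO doxorubicin libraries, against 97.3, 53.6 and 120.2 CPM in KO mock libraries. The WT libraries had 6.73, 3.75 and 4.73 CPM after doxorubicin, against 103, 53.8 and 95.1 CPM in mock libraries. Every doxorubicin library was far below every mock library, and replicate 2 was the lowest mock library in both genotypes. Mean CPM was 15.1-fold lower in KO and 16.5-fold lower in WT cells. On the log2(CPM + 1) scale the differences were -3.65 (SE 0.32, adjusted p = 3.75e-05) and -3.78 (SE 0.32, adjusted p = 1.93e-05) by limma. Ranked from the lowest log2 difference, Trib3 stood at place 4 of 10292 genes in KO cells and at place 1 in WT cells.

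Chac1, an enzyme that degrades glutathione, fell in KO cells and did not pass the test in WT cells. It had 11.5, 22.6 and 15.5 CPM in KO doxorubicin libraries, against 40.5, 32.4 and 28.02 CPM in KO mock libraries. The WT doxorubicin libraries had 13.05, 35.3 and 24.4 CPM, against 36.7, 33.3 and 28.2 CPM in WT mock libraries. The WT groups overlapped, since the doxorubicin library of replicate 2 was as high as the mock libraries, and the KO groups did not. On the log2 scale the differences were -1.02 (SE 0.32, adjusted p = 0.0295) in KO and -0.51 (SE 0.32, adjusted p = 0.207) in WT cells by limma. The KO call was lost when any one of 4 libraries was left out, KO mock replicate 1 (adjusted p = 0.0997) or 2 (0.0633) or KO doxorubicin replicate 1 (0.101) or 3 (0.0774).

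Ppp1r15a encodes GADD34, which brings a phosphatase to eIF2 and so ends the response, and it moved the other way. It had 93.6, 176 and 131 CPM in KO doxorubicin libraries, against 82.4, 62.9 and 65.3 CPM in KO mock libraries. The WT doxorubicin libraries had 166, 262 and 183 CPM, against 84.8, 82.9 and 63.1 CPM in WT mock libraries. Every doxorubicin library was above every mock library of its genotype, although KO doxorubicin replicate 1 was only a little above KO mock replicate 1. The log2 differences were 0.88 (SE 0.23, adjusted p = 0.0137) in KO and 1.38 (SE 0.23, adjusted p = 7.47e-04) in WT cells by limma. Without KO doxorubicin replicate 2, the highest of its group, the KO difference was 0.66 (adjusted p = 0.0533).

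**Figure D2:**
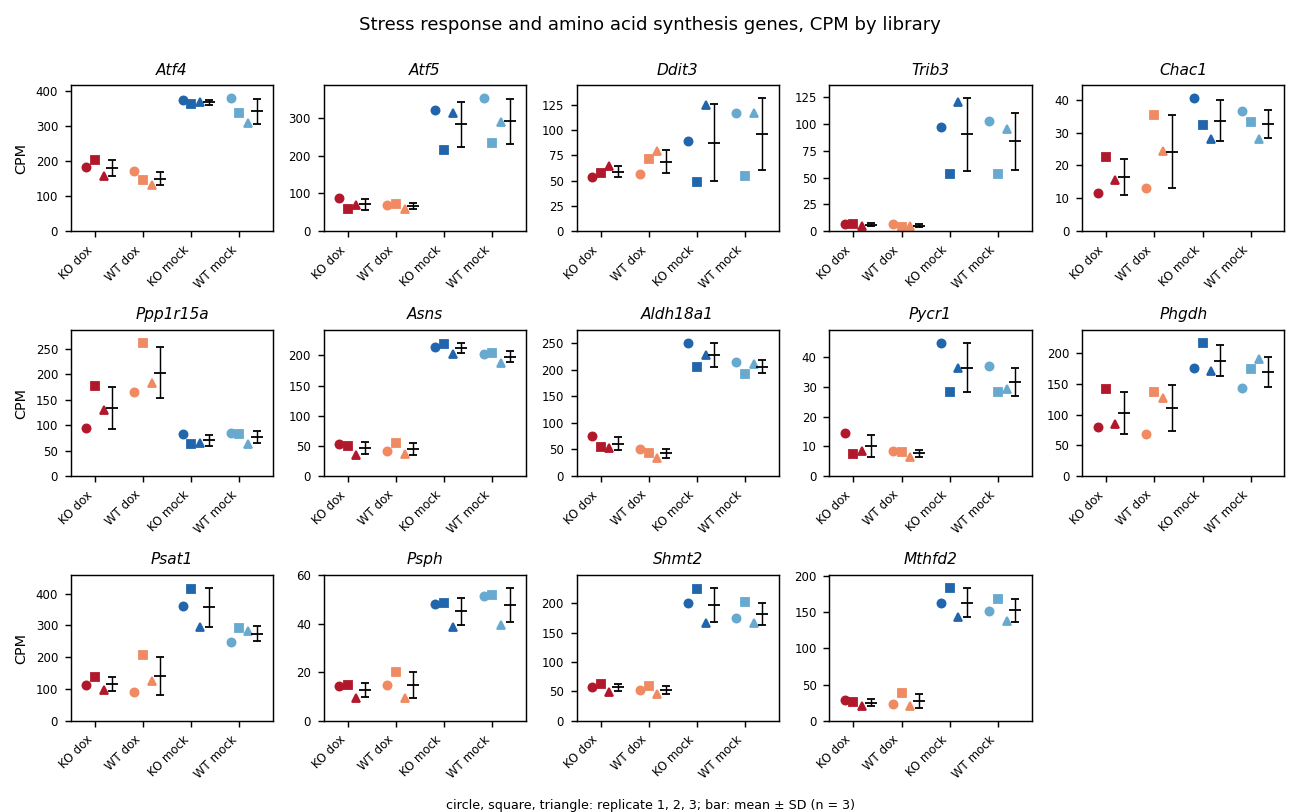
CPM of the 14 stress response and amino acid synthesis genes in each of the 12 libraries, by group, with circle, square and triangle for replicates 1, 2 and 3 and black bars for mean ± SD (n = 3); each panel has its own axis from 0. Atf4, Atf5, Trib3 and the synthesis genes are low in both doxorubicin groups, Ddit3 overlaps between treatments, and Ppp1r15a is high after doxorubicin.

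The 3 asparagine and proline genes all fell in both genotypes. Asns makes asparagine and is a standard ATF4 target, and its promoter match is printed above. It had 53.3, 50.6 and 34.5 CPM in KO doxorubicin libraries, against 214, 219.5 and 203 CPM in KO mock libraries. In WT cells it had 41.9, 55.1 and 37.1 CPM after doxorubicin, against 202, 204 and 188 CPM in mock libraries. Mock libraries stood close together and about 4 times as high as the doxorubicin libraries. On the log2 scale the differences were -2.20 (SE 0.17, adjusted p = 2.4e-05) in KO and -2.14 (SE 0.17, adjusted p = 1.17e-05) in WT cells by limma.

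Aldh18a1 catalyses the first steps of proline synthesis from glutamate. It had 74.5, 54.6 and 52.8 CPM in KO doxorubicin libraries, against 249.7, 204 and 228 CPM in KO mock libraries, and 50.1, 43.1 and 34.4 CPM in WT doxorubicin libraries, against 214, 192 and 209.9 CPM in WT mock libraries. The treatments were far apart, and all 3 KO doxorubicin libraries were above all 3 WT doxorubicin libraries. The log2 differences were -1.90 (SE 0.16, adjusted p = 2.9e-05) in KO and -2.26 (SE 0.16, adjusted p = 6.53e-06) in WT cells by limma. Pycr1, which carries out the last step of proline synthesis, had 14.4, 7.47 and 8.33 CPM in KO doxorubicin libraries, against 44.8, 28.3 and 36.3 CPM in KO mock libraries, and 8.399, 8.24 and 6.29 CPM in WT doxorubicin libraries, against 37.1, 28.3 and 29.5 CPM in WT mock libraries. Its groups did not overlap, and its log2 differences were -1.79 (adjusted p = 3.58e-04) and -1.92 (adjusted p = 1.25e-04) by limma.

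In the serine and one-carbon group, all 5 genes were lower after doxorubicin in KO cells and 4 of 5 in WT cells, with Phgdh the exception in WT. Mthfd2, a mitochondrial folate enzyme, changed most. It had 29.1, 26.6 and 20.01 CPM in KO doxorubicin libraries, against 162, 183 and 143 CPM in KO mock libraries. The WT libraries had 23.3, 38.8 and 20.7 CPM after doxorubicin, against 151, 169 and 137 CPM in mock libraries. No doxorubicin library came near a mock library. On the log2 scale the differences were -2.65 (SE 0.22, adjusted p = 2.66e-05) and -2.47 (SE 0.22, adjusted p = 2.15e-05) by limma, a 6.46-fold and a 5.51-fold lower mean.

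Shmt2, which moves a carbon from serine to folate in mitochondria, fell by nearly the same amount in both genotypes. It had 57.5, 62.9 and 49.5 CPM in KO doxorubicin libraries, against 199, 224 and 166 CPM in KO mock libraries. In WT cells it had 51.8, 59.5 and 45.8 CPM after doxorubicin, against 175, 202 and 166 CPM in mock libraries. The groups did not overlap, and the log2 differences were -1.77 (SE 0.14, adjusted p = 2.66e-05) and -1.77 (SE 0.14, adjusted p = 1.4e-05) by limma.

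Phgdh, Psat1 and Psph carry out serine synthesis from a glycolytic intermediate in that order. Phgdh, the first enzyme, had 79.6, 143 and 85.5 CPM in KO doxorubicin libraries, against 177, 217 and 171 CPM in KO mock libraries, and 67.9, 137 and 127 CPM in WT doxorubicin libraries, against 144, 175 and 191 CPM in WT mock libraries. Its doxorubicin libraries were spread widely but lay under the mock libraries of their genotype. The log2 difference was -0.91 (SE 0.27, adjusted p = 0.0238) in KO and -0.67 (SE 0.27, adjusted p = 0.0634) in WT cells by limma, and with the block WT also passed (adjusted p = 0.00766). The KO call was lost without KO mock replicate 2 (adjusted p = 0.0776) and without KO doxorubicin replicate 1 (0.0805) or 3 (0.0841).

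Psat1, the second enzyme, had 112, 138 and 96.6 CPM in KO doxorubicin libraries, against 362, 415 and 294 CPM in KO mock libraries. The WT libraries had 90.7, 206 and 125 CPM after doxorubicin, against 247, 292 and 283 CPM in mock libraries. The KO mock libraries were the highest group and all lay above the WT mock libraries. The log2 differences were -1.62 (SE 0.25, adjusted p = 8.3e-04) in KO and -1.04 (SE 0.25, adjusted p = 0.00603) in WT cells by limma. Psph, the last enzyme, had 14.3, 14.8 and 9.51 CPM in KO doxorubicin libraries, against 48.3, 48.5 and 38.7 CPM in KO mock libraries, and 14.8, 20.3 and 9.24 CPM in WT doxorubicin libraries, against 51.5, 51.96 and 39.5 CPM in WT mock libraries. Every doxorubicin library was below every mock library, with log2 differences of -1.75 (adjusted p = 5.79e-04) and -1.68 (adjusted p = 3.76e-04) by limma.

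The synthetases differed in level as well as in response. Per kilobase of merged exons (GENCODE vM21, all transcripts of a gene joined), 19 of the 21 cytosolic synthetases in WT mock cells stood above the highest mitochondrial one other than Lars2, which was Iars2. Dars, the lowest of the 19, had 24.4 ± 2.38 CPM per kb in KO mock and 20.8 ± 0.781 CPM per kb in WT mock cells, and Iars2 had 13.03 ± 1.105 and 11.9 ± 1.79 (SD, n = 3 each). Nars and Gars led the cytosolic genes at 137 ± 12.2 and 146 ± 11.2 CPM per kb in KO mock cells, and at 136 ± 10.4 and 135 ± 6.400 in WT mock cells, without differing beyond their spread. The lowest synthetase was Mars2, the mitochondrial methionyl enzyme, with 0.698 ± 0.0784 CPM per kb in KO mock and 0.6897 ± 0.0993 in WT mock cells. In CPM its 12 libraries all lay between 6.63 and 10.7. Tarsl2, a second threonyl-tRNA synthetase gene, was the lowest counted as cytosolic. Genes with long, rarely used exons come out low on this scale.

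**Figure D3:**
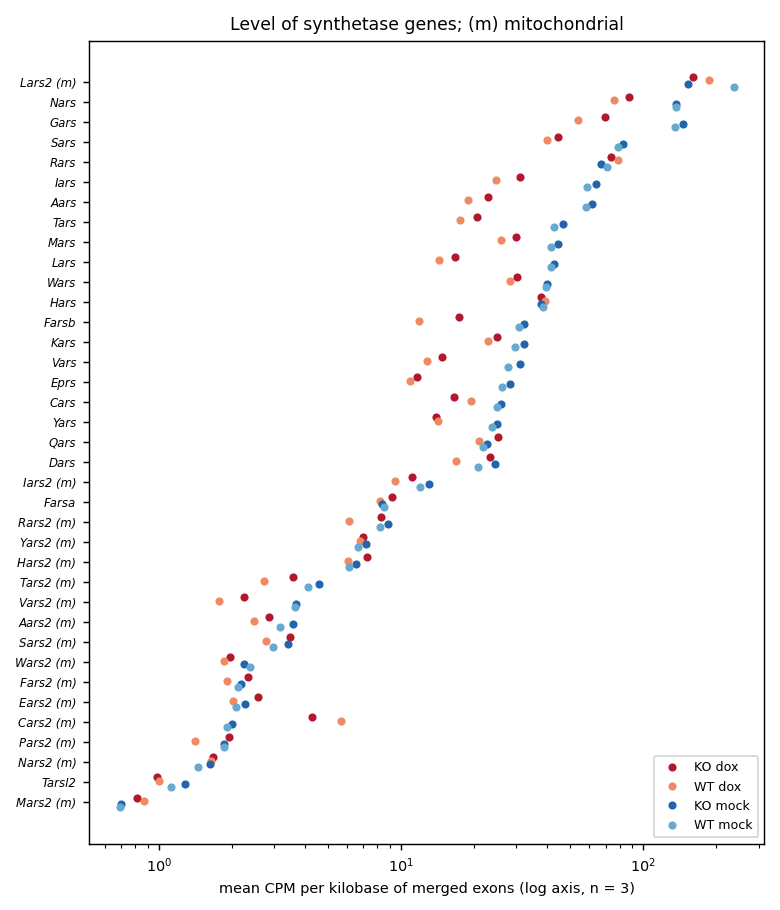
Mean CPM per kilobase of merged exons (log axis, n = 3 libraries) of 37 of the 38 synthetase genes in the 4 groups, ordered by WT mock level, with (m) for mitochondrial enzymes. Most cytosolic genes lie above most mitochondrial ones, Lars2 is highest, and the doxorubicin points of many cytosolic genes lie left of their mock points.

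Of the 21 cytosolic synthetases, 14 were lower after doxorubicin in KO cells and 14 in WT cells, and 0 were higher. Over all genes 14.6% were lower and 19.9% higher in KO cells, and 21.4% lower and 25.9% higher in WT cells. The median log2 difference was -0.65 in KO and -0.74 in WT cells. The 7 that did not pass were Dars, Farsa, Hars, Kars, Qars, Rars and Tarsl2. Their log2 differences ran from -0.38 to 0.14 in KO cells and from -0.38 to 0.15 in WT cells. With the block Kars was lower in both genotypes (adjusted p = 0.00497 in KO and 0.00373 in WT) and Dars in WT (0.0392), where 24% of all genes were lower in KO and 30.1% in WT cells.

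Aars, the alanyl enzyme, fell most of the synthetases in both genotypes and has 2 motif matches in its promoter. It had 230.4, 204 and 199.9 CPM in KO doxorubicin libraries, against 568, 515 and 639 CPM in KO mock libraries. In WT cells it had 195, 176 and 158 CPM after doxorubicin, against 545, 492 and 583 CPM in mock libraries. The lowest mock library was more than 2 times the highest doxorubicin library, and the log2 differences were -1.43 (SE 0.12, adjusted p = 2.7e-05) in KO and -1.61 (SE 0.12, adjusted p = 7.93e-06) in WT cells by limma. Lars, the leucyl enzyme, had 95.9, 89.8 and 83.3 CPM in KO doxorubicin libraries, against 216, 231 and 240.1 CPM in KO mock libraries, and 94.96, 76.2 and 60.6 CPM in WT doxorubicin libraries, against 216, 222 and 231 CPM in WT mock libraries. Its groups were also far apart, with log2 differences of -1.34 (adjusted p = 9.03e-05) and -1.54 (adjusted p = 2.46e-05).

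Eprs, a single protein that charges both glutamate and proline tRNA, had 229, 226 and 179 CPM in KO doxorubicin libraries, against 492, 492 and 548 CPM in KO mock libraries. The WT libraries had 212, 213 and 168 CPM after doxorubicin, against 465, 438 and 511 CPM in mock libraries. No library of one treatment came near the other, and the log2 differences were -1.28 (SE 0.13, adjusted p = 8.09e-05) and -1.25 (SE 0.13, adjusted p = 4.46e-05) by limma. Gars, the glycyl enzyme, had 229, 208 and 215 CPM in KO doxorubicin libraries, against 452, 492 and 423 CPM in KO mock libraries, and 167, 175 and 159.6 CPM in WT doxorubicin libraries, against 404, 443 and 416 CPM in WT mock libraries. It had a narrow spread within groups, and its log2 differences were -1.06 (adjusted p = 2.9e-05) and -1.33 (adjusted p = 5.76e-06).

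Tars, the threonyl enzyme, had 122, 139.6 and 102 CPM in KO doxorubicin libraries, against 261, 324 and 245 CPM in KO mock libraries, and 116, 111 and 84.4 CPM in WT doxorubicin libraries, against 231, 287 and 241 CPM in WT mock libraries. Its treatments were far apart. Tars, Vars and Iars, the threonyl, valyl and isoleucyl enzymes, fell by about as much as Gars. Their log2 differences in KO cells were -1.18, -1.06 and -1.04, and in WT cells -1.28, -1.12 and -1.25 (limma, adjusted p at most 6.42e-04). Sars and Yars, the seryl and tyrosyl enzymes, fell, with log2 differences of -0.88 and -0.83 in KO and of -0.98 and -0.74 in WT cells (adjusted p at most 3.08e-04). Nars, Mars, Cars and Wars, the asparaginyl, methionyl, cysteinyl and tryptophanyl enzymes, were lower too. Their log2 differences were -0.65, -0.58, -0.65 and -0.41 in KO and -0.86, -0.68, -0.35 and -0.49 in WT cells (adjusted p at most 0.0179).

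The 2 subunits of the phenylalanyl enzyme gave different calls. Farsb, the beta subunit, had 44.2, 53.03 and 39.4 CPM in KO doxorubicin libraries, against 81.6, 92.6 and 79.7 CPM in KO mock libraries, and 31.4, 30.2 and 31.5 CPM in WT doxorubicin libraries, against 74.1, 82.8 and 85.00 CPM in WT mock libraries. The treatments did not overlap, and its log2 differences were -0.89 (SE 0.12, adjusted p = 3.58e-04) in KO and -1.35 (SE 0.12, adjusted p = 2.31e-05) in WT cells by limma. Farsa, the alpha subunit, averaged 41.7 ± 7.49 CPM in KO doxorubicin and 37.7 ± 3.21 CPM in KO mock libraries, and 37.1 ± 7.35 CPM in WT doxorubicin and 38.6 ± 4.21 CPM in WT mock libraries (SD, n = 3 each). Its log2 differences of 0.13 (adjusted p = 0.587) and -0.07 (adjusted p = 0.757) did not pass. The difference between the subunits was not tested.

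Among the 17 mitochondrial synthetases, 2 were lower and 1 higher after doxorubicin in KO cells, where 14.6% of all genes were lower and 19.9% higher. In WT cells 4 were lower and 1 higher, where 21.4% of all genes were lower and 25.9% higher. The median log2 difference was 0.03 in KO and -0.15 in WT cells, where the medians over all genes were 0.04 and 0.01, and 13 of the 17 were below 0 in WT cells. With the block 4 were lower and 1 higher in KO and 8 lower and 1 higher in WT cells, where 24% and 30.1% of all genes were lower. Tars2, the threonyl enzyme, had differences by limma of -0.34 (adjusted p = 0.0498) in KO, just inside the threshold, and -0.58 (adjusted p = 0.00237) in WT cells. Vars2, the valyl enzyme, was at 15.9, 9.42 and 11.4 CPM in KO and 14.4, 6.44 and 8.29 CPM in WT doxorubicin libraries, against 21.1, 16.7 and 22.8 CPM in KO and 22.9, 16.8 and 20.2 CPM in WT mock libraries. It had -0.70 (adjusted p = 0.0634) in KO, which did not pass without the block, and -1.03 (adjusted p = 0.00834) in WT cells. Iars2 had -0.22 (adjusted p = 0.192) in KO, which did not pass, and -0.33 (adjusted p = 0.0457) in WT cells. The KO call of Tars2 and the WT call of Iars2 lay so near the threshold that leaving out most single libraries, of either genotype, ended them (adjusted p up to 0.154 for Tars2 and 0.186 for Iars2).

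Cars2, the mitochondrial cysteinyl enzyme, was the synthetase that rose in both genotypes. It had 23.4, 25.1 and 44.4 CPM in KO doxorubicin libraries, against 13.1, 13.5 and 16.9 CPM in KO mock libraries. In WT cells it had 37.3, 30.2 and 55.8 CPM after doxorubicin, against 12.7, 12.5 and 16.5 CPM in mock libraries. All doxorubicin libraries were above all mock libraries, and replicate 3 was highest in each group. On the log2 scale the differences were 1.00 (SE 0.27, adjusted p = 0.0137) in KO and 1.46 (SE 0.27, adjusted p = 0.00109) in WT cells by limma. Without KO doxorubicin replicate 3 the KO difference was 0.71 (adjusted p = 0.053). Its cytosolic counterpart Cars fell in both genotypes, and its WT call was lost without WT mock replicate 2 (adjusted p = 0.058) or WT doxorubicin replicate 1 (0.0597).

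Lars2, the mitochondrial leucyl enzyme, had the most reads of all synthetases, in CPM and per kilobase, and 1 library that stood apart. It had 154 ± 24.0 CPM per kb in KO mock and 237 ± 161 in WT mock cells, where Iars2 had 13.03 and 11.9. Whether all of these reads came from Lars2 mRNA was not tested, so its values are not taken as the level of that mRNA. It had 1904, 1889 and 1546 CPM in KO doxorubicin libraries and 2048, 2236 and 1951 CPM in WT doxorubicin libraries, against 1979, 1449 and 1683 CPM in KO mock libraries and 4653, 1292 and 1931 CPM in WT mock libraries. WT mock replicate 1 was 2.41-fold above the higher of the other WT mock libraries. In that library 82 of the 10648 genes of the mock table were at least 2-fold above both others, against 43 and 101 such genes in replicates 2 and 3. The WT difference after doxorubicin was -0.13 (adjusted p = 0.788) with all libraries and 0.39 (adjusted p = 0.146) without that library, so its sign rests on 1 library. It did not pass either way.

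**Figure D4:**
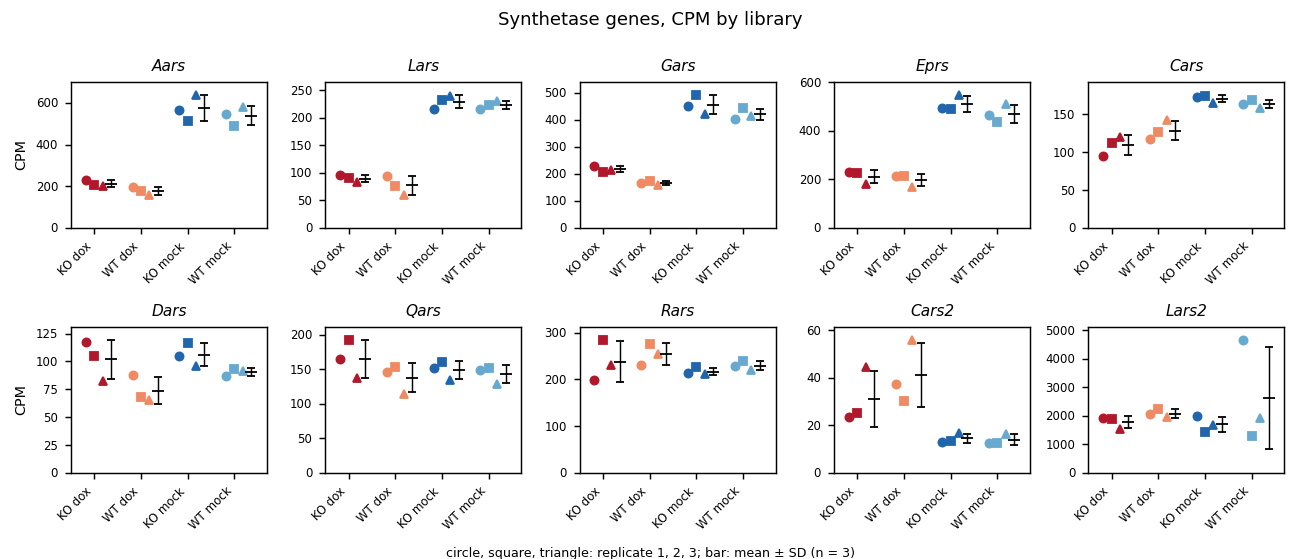
CPM of 10 synthetase genes in each of the 12 libraries, by group, with circle, square and triangle for replicates 1, 2 and 3 and black bars for mean ± SD (n = 3); each panel has its own axis from 0. Aars, Lars, Gars, Eprs and Cars are lower after doxorubicin, Dars, Qars and Rars overlap between treatments, Cars2 is higher after doxorubicin, and 1 WT mock library of Lars2 stands far above the rest.

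The members with the motif printed above and those without it were set side by side as a description. Of the 9 with a match, 9 were lower after doxorubicin in KO cells and 8 in WT cells, with median log2 differences of -1.18 and -1.33. Of the 33 with a promoter entry and no match, 13 were lower in KO and 14 in WT cells, with medians of -0.34 and -0.38. Within the cytosolic synthetases the 5 with a match (Aars, Gars, Iars, Tars and Yars) were all lower in both genotypes, as were 4 of the 9 without one. Lars, Nars, Vars, Wars and Cars had no promoter entry and were not searched, and they were also lower in both genotypes. Hars and Rars had no entry either and were not called. Over all genes 14.6% were lower in KO and 21.4% in WT cells. Mthfd2, Aldh18a1, Atf5 and Shmt2 were among the members that fell most and had no match in the window.

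Other genes of the pathway were counted from lists, whose counts are to be read against the shares of all genes called without the block, 14.6% lower and 19.9% higher in KO cells and 21.4% lower and 25.9% higher in WT cells. Of 30 further ATF4 targets, 27 were measured under both treatments. In KO cells 17 were lower after doxorubicin and 0 higher by limma (with the block, 19 and 3; 20 had an unadjusted p under 0.05), and in WT cells 13 were lower and 3 higher. Aldh1l2, a mitochondrial folate enzyme, fell, with log2 differences of -2.74 (adjusted p = 1.98e-06) in KO and -2.30 (adjusted p = 4.07e-06) in WT cells. Gpt2 and Shmt1, which make alanine and handle cytosolic one-carbon units, fell, with log2 differences of -2.01 and -1.97 in KO and of -1.83 and -2.05 in WT cells (adjusted p at most 9.4e-05). Mthfd1l, another mitochondrial folate enzyme, fell, with log2 differences of -1.62 (adjusted p = 8.37e-05) in KO and -1.59 (adjusted p = 4.6e-05) in WT cells. Stc2, Atf3 and Sesn2, named after their values were seen, were higher in WT cells by 1.24, 1.15 and 0.50 (adjusted p at most 0.0254), and in KO cells the differences of 0.46, 0.30 and 0.42 did not pass.

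Of 14 genes of eIF2 and its kinases, 2 were higher and 2 lower after doxorubicin in KO cells, and 4 were higher and 2 lower in WT cells, so that the list gave about the shares of all genes, 14.6% lower and 19.9% higher in KO and 21.4% lower and 25.9% higher in WT cells. As single genes, Eif2s2, the beta subunit of eIF2, fell, with log2 differences of -0.81 (adjusted p = 6.14e-04) in KO and -0.85 (adjusted p = 2.26e-04) in WT cells. Eif2b2, a subunit of the factor that recharges eIF2, rose by 0.63 (adjusted p = 0.0117) in KO and 0.77 (adjusted p = 0.00252) in WT cells. Of 19 genes of the unfolded protein response of the endoplasmic reticulum, 18 were measured, of which 3 were higher and 3 lower in KO cells and 7 higher and 4 lower in WT cells. With the block the KO counts were 6 higher and 10 lower. Dnajb9, a chaperone cofactor, rose by 1.52 (adjusted p = 0.00176) in KO and 2.12 (adjusted p = 1.39e-04) in WT cells, and Ern1, which encodes the sensor IRE1, by 1.17 (adjusted p = 0.00703) and 1.83 (adjusted p = 3.29e-04). Herpud1, which takes part in protein degradation at that membrane, fell, with log2 differences of -1.35 (adjusted p = 1.99e-05) in KO and -1.43 (adjusted p = 6.24e-06) in WT cells.

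Of 15 synthetase accessory and tRNA-related genes, 14 were measured, and 1 was higher and 2 lower in KO cells and 2 higher and 5 lower in WT cells. In KO cells this is about the share of all genes that were lower, 14.6%, and in WT cells 21.4% of all genes were lower. With the block 4 were lower in KO cells, where 24% of all genes were. As single genes, Pstk, the kinase of selenocysteine tRNA, fell, with log2 differences of -0.70 (adjusted p = 0.0209) in KO and -1.26 (adjusted p = 5.52e-04) in WT cells. Aarsd1, an editing factor that clears mischarged alanine tRNA, fell, with log2 differences of -0.55 (adjusted p = 0.00584) in KO and -0.79 (adjusted p = 4.21e-04) in WT cells.

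The KO and WT cells were then compared under each treatment, to see how the members differ without lincRNA-p21. In mock cells no member passed the test by limma, with or without the block, while 0% of the 10648 genes were called without the block, and 0.563% were called higher and 0.357% lower with it. Unadjusted p was under 0.05 for 1 member, Psat1, and for 440 of all genes. Of the 52 members, 42 had a positive KO minus WT difference, with a median of 0.09, and 7094 of the 10648 genes were positive, with a median of 0.06. The 3 KO libraries lay above the 3 WT libraries for 3 members (Psat1, Dars and Aars2) and below for 0, where all genes gave 8.25% above and 1.74% below. The Psat1 difference was 0.37 (SE 0.14, adjusted p = 0.978). The Lars2 difference was -0.42 (adjusted p = 0.978) with all libraries and 0.10 (adjusted p = 1.00) without WT mock replicate 1.

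After doxorubicin the median KO minus WT difference of the members was 0.16, against 0.03 over all genes, and calls rested on the replicate block. Without the block 0 of the 52 members and 0% of the 11125 genes passed by limma, and unadjusted p was under 0.05 for 7 members and for 1246 of all genes. With the block 9 members were higher and 4 lower in KO cells, while 11.8% of all genes were higher and 13.6% lower. The share of members called higher, 9 of 52, is to be read against that background. The KO libraries lay above the WT libraries for 8 members and below for 1, where all genes gave 9.70% above and 6.64% below. With 3 pairs the blocked fit rests on few degrees of freedom. Cell type markers differed between these groups as well: the summed level of the 2 endothelial markers, given above, was lower in every KO than in every WT library, with Eng separating the groups and Kdr overlapping. The 2 muscle markers of 5 in both tables summed to 22.6 to 52.55 CPM in KO and 44.6 to 204 CPM in WT doxorubicin libraries, which overlapped. Of these, Des separated the groups, at 18.3 to 26.4 CPM in KO and 37.5 to 72.9 CPM in WT libraries, and Acta1 overlapped. Both were called lower in KO cells with the block, with log2 differences of -1.41 to -1.39, and neither without it. Their part in the differences was not tested.

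The 9 higher members were Farsb, Aldh18a1, Dars, Rars2, Tars2, Gars, Iars, Aars and Qars, of which 6 are cytosolic and 2 mitochondrial synthetases. The largest was Farsb, at 0.53 (SE 0.11 with the block, adjusted p = 0.0196), where KO doxorubicin libraries had 44.2, 53.03 and 39.4 CPM and WT doxorubicin libraries 31.4, 30.2 and 31.5 CPM. Every KO library was above every WT library. Aldh18a1 had a difference of 0.50 (adjusted p with the block = 0.0121), Dars of 0.46 (adjusted p with the block = 0.0116) and Gars of 0.37 (adjusted p with the block = 0.0146). Dars had 117, 105 and 82.8 CPM in KO and 87.5, 68.5 and 65.2 CPM in WT doxorubicin libraries. For Dars the groups overlapped, since the lowest KO library was under the highest WT library, and for Gars and Aldh18a1 they did not.

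Rars2 and Tars2, the mitochondrial arginyl and threonyl enzymes, were higher by 0.43 (adjusted p with the block = 0.0457) and 0.39 (adjusted p with the block = 0.0357). Tars2 had 25.7, 24.4 and 24.5 CPM in KO and 20.2, 17.01 and 19.2 CPM in WT doxorubicin libraries, and Rars2 had 26.2, 23.7 and 18.9 CPM in KO and 21.4, 14.3 and 15.03 CPM in WT doxorubicin libraries. The groups were separate for Tars2 and overlapped for Rars2. Iars, Aars and Qars were higher by 0.32, 0.26 and 0.26 (adjusted p with the block at most 0.0357). In mock cells the same 9 genes had differences of 0.07, 0.14, 0.22, 0.10, 0.14, 0.11, 0.12, 0.09 and 0.06 in that order, none of which passed. The genes were chosen by their differences after doxorubicin, so the smaller mock differences are not separate evidence.

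The 4 lower members were Ppp1r15a, Chac1, Cars2 and Cars. Ppp1r15a had 93.6, 176 and 131 CPM in KO doxorubicin libraries, against 166, 262 and 183 CPM in WT doxorubicin libraries. In each of the 3 replicate pairs the KO library was lower, with log2 differences of -0.82, -0.57 and -0.48, although the groups overlapped. Its difference was -0.62 (SE 0.09 with the block, adjusted p = 0.0065) by limma, and the adjusted p without the block was 0.443. The log2 difference of Chac1 was -0.47 (adjusted p with the block = 0.0405), that of Cars2 -0.41 (adjusted p with the block = 0.035) and that of Cars -0.24 (adjusted p with the block = 0.0488), and for each of these the KO and WT libraries overlapped while every pair had the KO library lower.

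These calls depended on which pair was left out. Without pair 1, 0 members were higher and 1, Ppp1r15a, lower. Without pair 2, 6 were higher and 3 lower, and without pair 3, 4 were higher and 1 lower. Ppp1r15a was lower in all of these fits, with adjusted p of 0.042, 0.00832 and 0.00107 without pairs 1, 2 and 3. Farsb, Aldh18a1 and Dars were higher without pair 2 and without pair 3, and had adjusted p of 0.0786, 0.0759 and 0.0622 without pair 1. In mock cells, leaving out pair 3 gave 10 members higher and 1 lower, where the fit with all pairs gave 0.

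**Figure D5:**
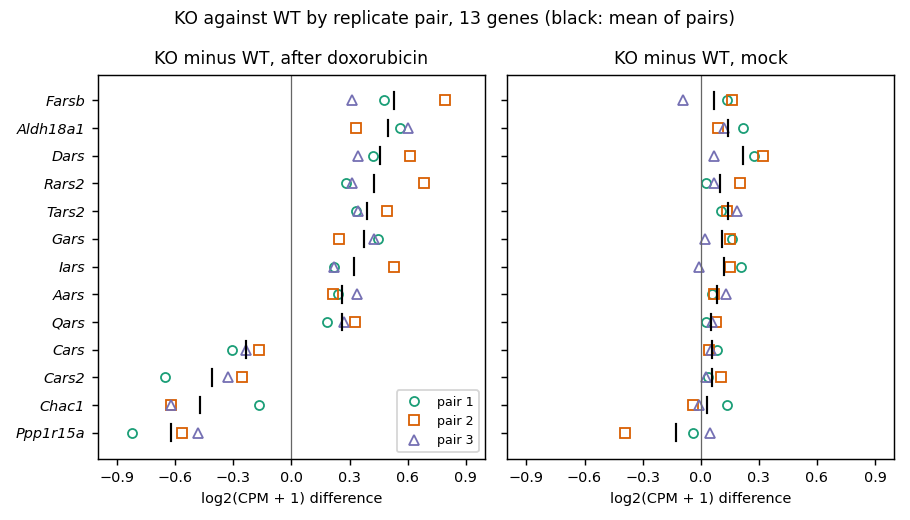
KO minus WT difference in log2(CPM + 1) within each replicate pair, after doxorubicin (left) and in mock cells (right), for the 13 members called after doxorubicin with the replicate block; symbols mark pairs 1, 2 and 3 and black ticks their mean. After doxorubicin all 3 pairs lie on one side of 0 for every gene, and in mock cells most points lie closer to 0. The genes were chosen by the differences in the left panel, so neither pattern is separate evidence.

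Whether the doxorubicin response differed between genotypes was tested as an interaction. No member passed by limma, with or without the block, and 0% of the 10292 genes did. Unadjusted p was under 0.05 for 1 member and for 468 of all genes. That member was Farsb, with an interaction of 0.46 (SE 0.17, adjusted p = 0.922), its fall being the smaller in KO cells. For Chac1, Phgdh and Psat1 the interactions were -0.50 (adjusted p = 0.922), -0.24 (adjusted p = 0.951) and -0.58 (adjusted p = 0.922). The separate calls in KO and WT cells given above are therefore not shown to differ.

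The libraries within a group also differed in how high Atf4 was. After removing the 4 group means, the genes whose log2(CPM + 1) followed Atf4 most closely over the 12 libraries were Zmat2 (Pearson r = 0.965), 1810022K09Rik (0.955), Snx1 (0.944), Stx8 (0.943) and Mul1 (0.938). Among the members Wars2 (0.881) and Farsa (0.879) were closest. Trib3 (0.429), Asns (0.517) and Ddit3 (-0.152), all genes that ATF4 is known to raise, followed it less. These values describe 12 libraries in 4 groups that share replicate numbers and carry no test.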

How the data were processed

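Poly(A) RNA from 12 libraries was sequenced with a stranded mRNA kit, per the labels' protocols. The authors deposited CPM values, read counts scaled to each library's total, in 2 tables, 1 for mock and 1 for doxorubicin cells, of 10648 and 11125 genes, with 10292 in both. TopHat2 2.0.6, HTSeq, edgeR and NCBIM37 are named in the submitters' processing notes, with no stated role. The strand setting of the counting is not given in the sources used here, so reads of overlapping genes cannot be assigned with certainty. In the deposited tables every gene had more than 2 CPM in every WT library of its table, so a gene low in WT under 1 treatment is missing.

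The members and lists were chosen with earlier results of these data known. Log2(CPM + 1) was tested with limma 3.58.1 (R 4.3.3, lmFit and eBayes with a trend) over all genes of each comparison, with Benjamini-Hochberg adjustment at 0.05. KO against WT used the 6 libraries of 1 table, while doxorubicin against mock and the interaction used all 12. The tables were scaled separately. The self-test on simulated data with known changes was run first. The replicate number was added as a block as an alternative. Deviations of same-numbered libraries from their group means correlated at 0.394 to 0.855 in the 4 pairs of groups compared, and those of differently numbered libraries at -0.0566 or below. The pairing comes from the data and the shared numbers, not from a statement in the labels.

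Full values are given for the stress and amino acid genes, for Eprs, for up to 6 synthetases per comparison with the largest difference past the threshold in either fit, and for the highest and lowest synthetase. Other listed genes are named by the same rule, up to 4 per list, and other values of members are added. Levels per kilobase use merged exon lengths, and promoters come from RefSeq. Alternatives were pseudocounts of 0.1 and 5, filters on mean CPM, quantile and median scaling, the genes of both tables, all 12 libraries, and leaving out libraries or replicate numbers. The single values of 1 member and of 1 other listed gene are not reported here, and both are included in the counts.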

Additional observations from a re-analysis of the deposited data

Results flagged for a closer look

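For Cars, the cytosolic cysteinyl-tRNA synthetase, the KO minus WT difference was below 0 in all 3 pairs after doxorubicin (-0.31, -0.17 and -0.24) and above 0 in all 3 pairs in mock cells (0.08, 0.04 and 0.05). The interaction was -0.30 on the log2 scale, with a limma adjusted p of 0.922 without the block and 0.307 with it.

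Cars2, the mitochondrial cysteinyl-tRNA synthetase, gave the same pattern of signs, with pair differences of -0.65, -0.26 and -0.33 after doxorubicin and 0.04, 0.10 and 0.03 in mock cells. The interaction was -0.47, with a limma adjusted p of 0.922 without the block and 0.294 with it. Both genes were picked from the members because every pair lay on one side of 0 under one treatment and on the other side under the other. In neither did the test of that difference pass. How many of all genes show such a pattern was not counted. The mock differences are small beside those after doxorubicin.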

How the results depend on the processing

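Single values were recomputed for the called stress and amino acid genes and for up to 6 called synthetases per comparison with the largest differences. Of these 1068 values, 1015 kept their direction and side of the threshold, 9 no longer passed, 44 newly passed and 0 changed sign after being called. Calls outside this set are not in these counts. Among them, the doxorubicin calls of Tars2 and Cars2 in KO and of Iars2 and Cars in WT cells were lost without some single libraries, as given above. The replicate block moved KO against WT after doxorubicin to 9 higher and 4 lower members. With the block and quantile normalization these counts were 8 and 2, and with the block and median centring 8 and 4, both alternatives chosen after seeing the data, as was leaving out the WT mock library in which Lars2 stood apart. Leaving out a replicate number in the blocked fit gave 0 to 6 higher and 1 to 3 lower after doxorubicin, and 0 to 10 higher and 0 to 1 lower in mock cells. For doxorubicin against mock in KO cells, leaving out 1 library or 1 replicate number gave 1 to 2 higher members. Lower members ran from 25 to 30 in KO and 27 to 32 in WT cells without 1 library, and from 29 to 30 and 29 to 33 in the blocked fit. Other settings gave 27 to 33 lower in KO and 28 to 37 in WT cells. The block changed no member's call in the interaction or in mock cells, where it moved the calls over all genes from 0 to 60 higher and 38 lower. The median of all genes after doxorubicin in WT cells was 0.01, against -0.10 with median centring. Ppp1r15a in KO cells also lost its call in the blocked fit without replicate 2 (limma adjusted p = 0.0758). The cause of these changes was not tested. The edgeR and DESeq2 fits on reads recovered from the CPM values were planned and not run, although every value was a whole multiple of 1 read. The filter at a mean of 1 CPM removed 0 genes. The number of libraries limits the precision.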

Other observations

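Several cytosolic synthetases sit together in the multisynthetase complex, and this grouping was made after the values were seen. Of its 8 synthetases (Eprs, Iars, Lars, Mars, Qars, Rars, Kars and Dars), 4 were lower after doxorubicin in KO and 4 in WT cells by limma, with median log2 differences of -0.48 and -0.53. Of the 13 other cytosolic synthetases, 10 were lower in each genotype, with medians of -0.83 and -0.86. With the block 5 of the 8 and 10 of the 13 were lower in KO cells, and 6 of the 8 and 10 of the 13 in WT cells. Over all genes 14.6% were lower in KO and 21.4% in WT cells without the block, and 24% and 30.1% with it. No test of the difference between these sets was made.

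After doxorubicin, the blocked fit of KO against WT also called other listed genes. Of 18 genes of the unfolded protein response, 6 were lower in KO cells and 1 higher, where 13.6% of all genes were lower. The log2 difference of Dnajb9 was -0.70 (limma adjusted p = 0.00781) and that of Ern1 -0.67 (adjusted p = 0.00637). Of the 14 synthetase accessory genes, 4 were higher and 0 lower, where 11.8% of all genes were higher. These were Dtd1 at 0.60 (adjusted p = 0.035), Pstk at 0.54 (0.0259), Ptrh2 at 0.41 (0.0336) and Aarsd1 at 0.39 (0.0401). Of 28 further ATF4 targets, 2 were higher and 4 lower, among them the amino acid transporters Slc7a5 at -0.92 (adjusted p = 0.00493) and Slc6a9 at -0.82 (0.00607). Without the block none of these genes passed.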
